A study of Mus musculus with 48 samples.

Results

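The libraries described here are those of wild-type (WT) control mice at CT26, that is 08:00, set against the same class of mice at CT22 (04:00) and CT30 (12:00). They were chosen by class and circadian time: 2 libraries at CT26 and 4 at the neighboring times, 6 of the 48 libraries of the series. RNA-seq was performed on tibialis anterior muscle, a fast-twitch muscle of the lower leg, from male mice 39 to 55 weeks old that were kept in constant darkness before collection. WT control mice had received saline (PBS) in the pancreas and carried no tumor. The labels call them C57BL/6J, whereas the series record describes FoxP1 fl/fl mice without Cre. The 3 other classes were WT mice with orthotopic KPC tumors, grown from murine pancreatic cancer cells, FoxP1SkmKO controls, in which Cre under the ACTA1 promoter deletes the floxed *Foxp1* allele in skeletal muscle fibers, and FoxP1SkmKO mice with KPC tumors. Each class had 2 mice at each time, and the 3 other classes contributed 6 libraries each at CT22, CT26, and CT30. The time and class were picked for their behavior in these counts, so fold changes between CT26 and its neighbors in WT controls are given as a description and without p-values. The same comparison in the 3 other classes did not use the libraries that guided the choice, and it is tested.

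The time studied lies in the early subjective day, the start of rest in a nocturnal mouse. The muscle clock is a loop in which BMAL1 (encoded by *Arntl*) and CLOCK switch on the *Per* and *Cry* genes, whose products then repress their activators, while the nuclear receptors REV-ERBα and β (*Nr1d1* and *Nr1d2*) repress *Arntl*. Muscle fibers hold some of the longest proteins of the body, such as titin and nebulin in the sarcomere, beside very abundant short messages for metabolic enzymes, ribosomes, and mitochondrial subunits.

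Total counts in the 24 libraries at CT22, CT26, and CT30 lay within the range of the whole series, 14480867 to 20787784. The WT control libraries at CT26 had 18579093 and 16606196 counts, 19054 and 19624 genes with any count, and 12.8% and 14.6% of counts on mitochondrially encoded genes, against 11.4% to 14.7% in their 4 neighbors. The chi-square of the replicate counts per degree of freedom, which would be near 1 for the same library sequenced again, was 11.3 at CT26, 11.5 at CT22, and 10.9 at CT30. The mice of a group were separate animals, so p-values measure the spread between mice. The muscle fiber markers *Acta1*, *Ckm*, *Myh4*, *Myh1*, *Mylpf*, and *Tnnt3* summed to 132000 and 126000 CPM (counts scaled to library depth) at CT26 and to between 123000 and 140000 at the neighbors, as the tissue label states. Fewer cells of a type and less RNA per cell cannot be told apart in whole muscle.

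In WT control muscle at CT26, part of the nuclear-encoded mitochondrial, ribosomal, and proteasome genes passed as higher, and most of the giant muscle proteins and chromatin regulators and part of the ubiquitin ligases and insulin signaling genes passed as lower, than the mean of CT22 and CT30. In the fit of edgeR to all 48 libraries, 2356 of 15637 tested genes (15.1%) passed an adjusted p of 0.05 for CT26 against the mean of CT22 and CT30. Of these, 1003 (6.41%) were higher and 1353 (8.65%) lower. Here this count describes the contrast that was chosen and is not a test of it. The median log2 fold change over all tested genes was 0.0012, as TMM scaling centers it, and the median absolute log2 fold change was 0.24. For 5346 genes (34.2%) both CT26 libraries lay beyond all 4 neighbor libraries, against 2145 (13.7%) in WT KPC, 2350 in FoxP1SkmKO control, and 2387 (15.3%) in FoxP1SkmKO KPC mice.

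The departure was larger in one of the CT26 mice. Among the 2356 genes, 1931 (82.0%) lay farther from the neighbor mean in replicate 1 than in replicate 2, and the median absolute deviation was 0.50 in replicate 1 and 0.35 in replicate 2 on the log2 scale. Without replicate 1, 314 of 16403 tested genes (1.91%) passed, 75 higher and 239 lower, and 302 of these (96.2%) were among the genes that passed with both mice. Without replicate 2, 2186 passed. In each of these fits the lone CT26 mouse was taken to vary like the other groups.

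Few genes passed at the neighboring times in the same class. CT22 against CT18 and CT26 gave 5 genes (0.032%), CT30 against CT26 and CT34 gave 176 (1.13%), and CT34 against CT30 and CT38 gave 0 (0%), with 767 genes at an unadjusted p under 0.05 and 4 genes by DESeq2. The first and the second of these use the CT26 libraries as a neighbor.

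The direction of the difference went with gene length. Here gene length is the deposited length, in bases, from which the authors computed FPKM, the reads of a gene scaled by its length and the depth of the library. When the tested genes were divided into deciles by length, the median log2 fold change in WT controls was 0.18 in the shortest decile (median length 792 bases), 0.20 in the second, 0.07 in the fifth, -0.11 in the eighth, and -0.30 in the longest (median 12044 bases). Of the 1564 genes in the longest decile, 6 passed as higher and 570 (36.4%) as lower, and 86.6% lay below 0. Of the 1564 genes in the second decile, 211 (13.5%) passed as higher and 30 as lower. The genes that passed as higher had a median length of 2541 bases, those that passed as lower 8588 bases, and all tested genes 4045 bases.

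**Figure D1:**
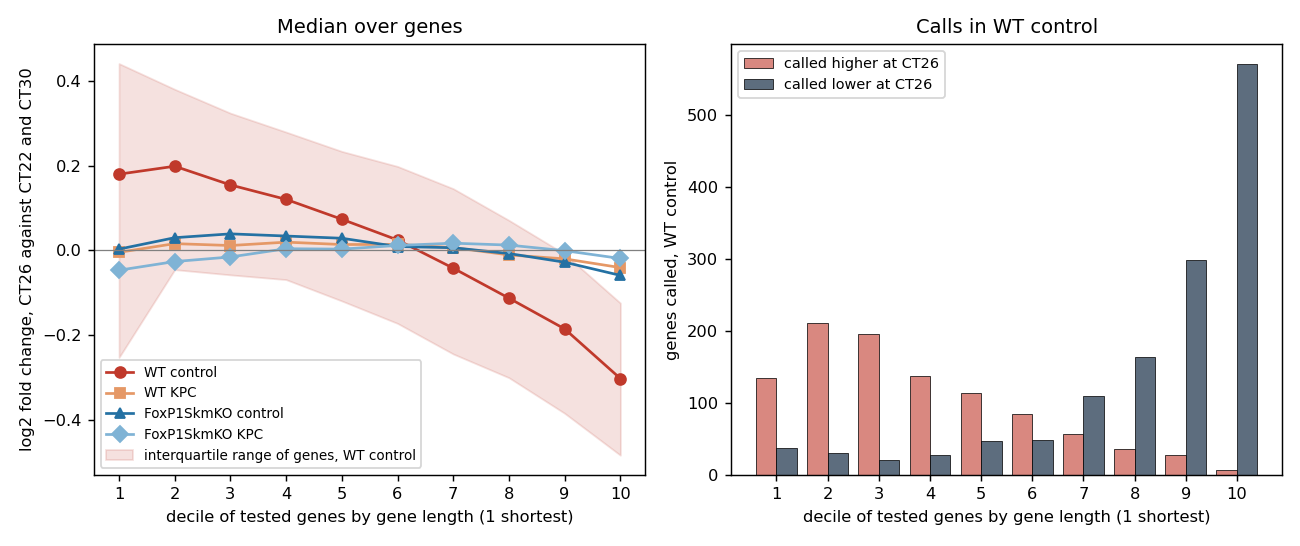
Left, median log2 fold change of CT26 against CT22 and CT30 over the genes of each decile by gene length, for the 4 classes, with the interquartile range of the genes in WT controls shaded. Right, genes of each decile that passed an adjusted p of 0.05 as higher or lower in WT controls. The WT control line falls from 0.18 to -0.30 while the other lines stay between -0.06 and 0.04.

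The gradient was present at every level of expression. In the tertile of genes with the highest mean expression, the median log2 fold change was 0.26 in the shortest decile and -0.29 in the longest, and in the tertile with the lowest expression it was 0.08 and -0.30. Both the coding part and the 3′ untranslated part of the message went with it. Among genes with a coding part in the shortest tertile and a 3′ untranslated part in the shortest tertile, the median was 0.23 and 371 of 1799 genes passed as higher. With a short coding part and a long 3′ untranslated part it was 0.01, with a long coding part and a short 3′ untranslated part it was -0.06, and with both in the longest tertile it was -0.29, where 511 of 1624 genes passed as lower. Across genes, which are not independent replicates, Spearman's rho of the log2 fold change in WT controls was -0.42 with coding length, -0.32 with 3′ untranslated length, -0.38 with gene length, -0.32 with genomic span, and 0.22 with GC content.

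A length slope was computed for every library as the slope of its log2 CPM deviation from the mean of the 48 libraries on log10 gene length. In WT controls at CT26 it was -0.31 and -0.24, the lowest of the 48 libraries. The 4 neighbors had slopes of -0.0044, 0.016, 0.064, and 0.014, and the 46 libraries other than WT control CT26 ranged from -0.16 to 0.19. Both CT26 mice lay outside that range. The count-weighted mean gene length was 5329 and 5549 bases at CT26 and 6361 to 6687 bases in the neighbors.

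**Figure D2:**
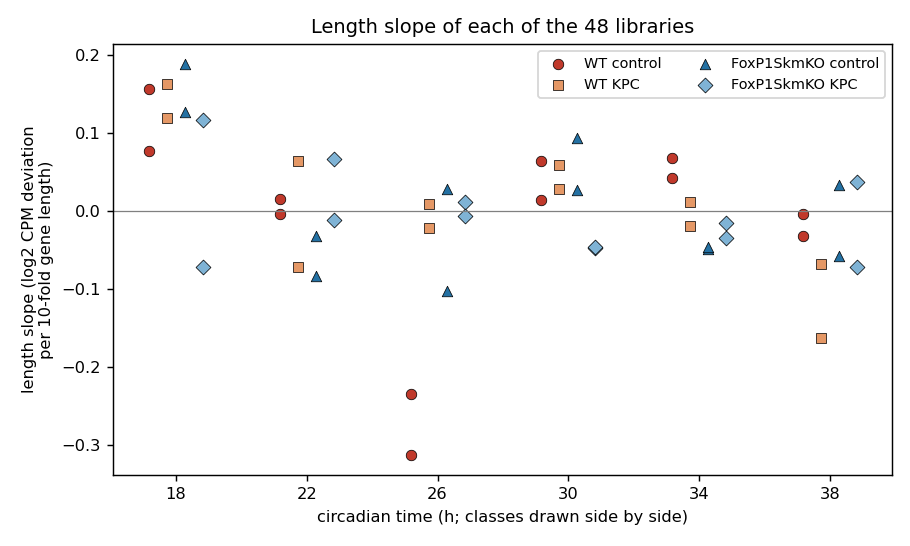
Length slope of each library (log2 CPM deviation per 10-fold gene length) against circadian time, 1 point per mouse. The WT control mice at CT26 have slopes of -0.31 and -0.24, below the other 46 libraries, which lie between -0.16 and 0.19.

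In the classes that did not guide the choice, the length slope at CT26 was not detectably different from the neighboring times. The CT26 mice minus their neighbors differed by -0.03 in WT KPC mice (mean -0.0072 ± 0.022 at CT26, SD, n = 2, and 0.020 ± 0.063 at the neighbors, n = 4; exact permutation test, two-sided p = 0.6). The difference was -0.04 in FoxP1SkmKO controls (-0.037 ± 0.092 and 0.0011 ± 0.076; exact permutation p = 0.6) and 0.01 in FoxP1SkmKO KPC mice (0.0021 ± 0.013 and -0.0096 ± 0.053; exact permutation p = 0.87). Each of these exact permutation tests has 15 arrangements and cannot go below p = 0.0667. The FoxP1SkmKO control mice at CT26 lay apart. Replicate 1 had a slope of -0.10, below all its neighbors (-0.084 to 0.093), and replicate 2 had 0.028, within their range. Over the 3 classes together, with all arrangements within class, the difference was -0.02 (exact permutation p = 0.55). Medians by length decile ran from -0.0044 to -0.04 in WT KPC mice, from 0.0032 to -0.06 in FoxP1SkmKO controls, and from -0.05 to -0.02 in FoxP1SkmKO KPC mice between the shortest and the longest decile.

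Long messages that build the sarcomere and its anchorage were the lowest as a group. Over all tested genes, 6.41% passed as higher and 8.65% as lower, the shares to set beside the list counts below. Among 19 giant muscle proteins (median length 19940 bases), 16 passed as lower and 0 as higher, and all 19 had a log2 fold change below 0, with a median of -0.58 against 0.0012 over all tested genes. *Neb*, encoding nebulin, the protein of the thin filament, had 134 and 151 FPKM in the CT26 mice against 216, 233, 266, and 238 FPKM at CT22 and CT30. Both CT26 values lay below all neighbors, and the log2 fold change was -0.74 (standard error 0.10). *Syne1*, encoding the nuclear anchor nesprin-1, was at 0.98 and 1.30 FPKM against 1.52 to 2.08 FPKM. *Ttn* (titin, -0.69), *Dmd* (dystrophin, -0.69), *Utrn* (utrophin, -0.69), and *Ryr1* (the calcium release channel, -0.58) were among the others that passed, and *Myom1*, *Myom2*, and *Xirp1* did not pass, with values between -0.15 and -0.19.

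Chromatin regulators followed. Of 47 tested (median length 13540 bases), 38 passed as lower and 0 as higher, with a median of -0.48. *Med12*, a subunit of the mediator kinase module, was at 1.70 and 2.75 FPKM at CT26 and at 4.61, 5.49, 5.40, and 4.97 FPKM at the neighbors (log2 fold change -1.21, standard error 0.14). *Kmt2a*, a histone H3 lysine methyltransferase, was at 1.5 and 2.0 FPKM against 2.96 to 3.35 FPKM (-0.86), and *Kmt2e* of the same family changed by -0.95. Of 23 ubiquitin ligases, 12 passed as lower, with a median of -0.29. Among them were *Huwe1*, a HECT ligase, at 5.8 and 7.44 FPKM against 10.8 to 12.5 FPKM (-0.80), and *Herc2* (-0.67). The ligases known from muscle atrophy, *Trim63* (0.08) and *Fbxo32* (-0.05), did not pass. Both are shorter than the median of the list (10480 bases). *Ubr3* (9719 bases, -0.64), also below that median, passed as lower, and *Nedd4l* (19400 bases, -0.14), above it, did not pass.

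Insulin and mTOR signaling genes were lower in part. The share of all tested genes that passed as lower was 8.65%. Of 17 tested, 8 passed as lower and 0 as higher, with a median of -0.38. *Insr*, the insulin receptor, had 4.21 and 4.82 FPKM against 5.29, 6.30, 8.57, and 6.82 FPKM (-0.56, standard error 0.10). *Irs2*, an adaptor of that receptor, changed by -0.68, *Tsc1*, a brake on mTOR, by -0.61, and *Mtor* by -0.49. *Slc2a4*, the glucose transporter GLUT4, was at 0.18 and did not pass. Among 26 splicing factors 10 passed as lower, *Son* (-0.56), *Ddx17* (-0.55), and *Prpf4b* (-0.50) with the largest changes, and the SR proteins *Srsf2* (0.05) and *Srsf3* (0.15) did not pass. Of 8 nuclear long noncoding RNAs 1 passed, *Malat1*, at 25.2 and 21.0 FPKM against 28.9, 35.0, 39.5, and 37.2 FPKM (-0.60).

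The groups that were higher hold short messages. The share of all tested genes that passed as higher was 6.41%. Among genes listed as nuclear-encoded subunits of oxidative phosphorylation, 18 of 38 for complex I passed as higher. For complexes II to IV 12 of 27 did, and for ATP synthase 8 of 17. In these lists 0 passed as lower, and the medians were 0.23, 0.27, and 0.27. The complex I list includes *Ndufa4* (0.17, did not pass) and *Ndufa4l2* (0.82, passed as higher), which may not be subunits of that complex. *Uqcrh*, the hinge subunit of complex III, had 169 and 149 FPKM at CT26 against 120, 117, 112, and 119 FPKM (log2 fold change 0.44, standard error 0.09). *Atp5d*, a subunit of the ATP synthase rotor, had 304 and 262 FPKM against 183 to 240 FPKM (0.45). *Sdhc*, the membrane anchor of complex II, had 112 and 105 FPKM against 73.6 to 91.7 FPKM (0.39). In each case both CT26 mice lay above all neighbors. The 13 mitochondrially encoded genes, transcribed in the organelle itself, had a median of 0.10, and 0 passed as higher and 1 as lower.

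The largest group by number was that of ribosomal proteins. Of 81 cytosolic ribosomal proteins 36 passed as higher (median 0.27), and of 77 mitochondrial ribosomal proteins 28 (median 0.25), with 0 lower in either. *Mrpl55*, of the large mitochondrial subunit, was at 39.1 and 33.5 FPKM against 23.3 to 27.2 FPKM (0.54). The proteasome, which degrades ubiquitin-tagged proteins, had 19 of 46 genes higher (median 0.25), *Psmd8* among them, at 58.8 and 57.4 FPKM against 41.0 to 49.3 FPKM. The V-ATPase, the proton pump of lysosomes, had 7 of 19 genes higher (median 0.26). Many ribosomal protein genes have near-identical pseudogenes, and values of such genes depend on how reads were shared among copies.

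Other pathways of fuel use and protein breakdown moved less or were split. Since 6.41% of all tested genes passed as higher and 8.65% as lower, counts of 1 or 2 members below say little about their list. Glycolysis had 3 of 12 entries higher (median 0.15), among them *Aldoa*, encoding aldolase A, at 6740 and 6170 FPKM against 5050 to 5350 FPKM (0.32), and *Pgam2* (0.32). A second, shorter entry of the same symbol *Aldoa* (799 bases) was at -0.15 and did not pass. *Gapdh* had 9.78 and 18.2 FPKM at CT26 against 83.5, 148, 33.9, and 152 FPKM and did not pass (-2.89, standard error 1.41), and its level ran from 6.21 to 173 FPKM over the 48 libraries, so it is uncertain, as are other genes with near-identical pseudogenes. The tricarboxylic acid cycle had 4 of 18 genes higher and 1 lower (*Pdha1*, -0.26), and fatty acid oxidation 1 of 20 higher and 1 lower. Autophagy genes were split: *Gabarap*, a short ubiquitin-like protein of the autophagosome, was higher (55.0 and 50.0 FPKM against 37.4 to 41.5 FPKM; 0.43), and *Atg2b*, a large lipid transfer protein, was lower (1.47 and 1.49 FPKM against 2.06 to 2.31 FPKM; -0.54), within 3 higher and 6 lower of 28, and with the length trend removed 5 were higher and 0 lower. Of 12 small contractile and fast-fiber proteins 2 passed as higher (*Tnni2*, 0.36, and *Tpm1*, 0.28), and of 10 slow-fiber genes, 15 immediate early genes, and 11 heat shock proteins 0 passed. The collagens had 1 of 40 lower with a median of -0.28, and *Col1a1* did not pass (-0.73, standard error 0.44). Mitochondrial protein import had 5 of 22 genes higher (median 0.16), glucocorticoid-responsive genes 1 of 9 lower (median -0.25), and replication-dependent histones 1 of 26 higher and 2 lower (median -0.09).

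**Figure D3:**
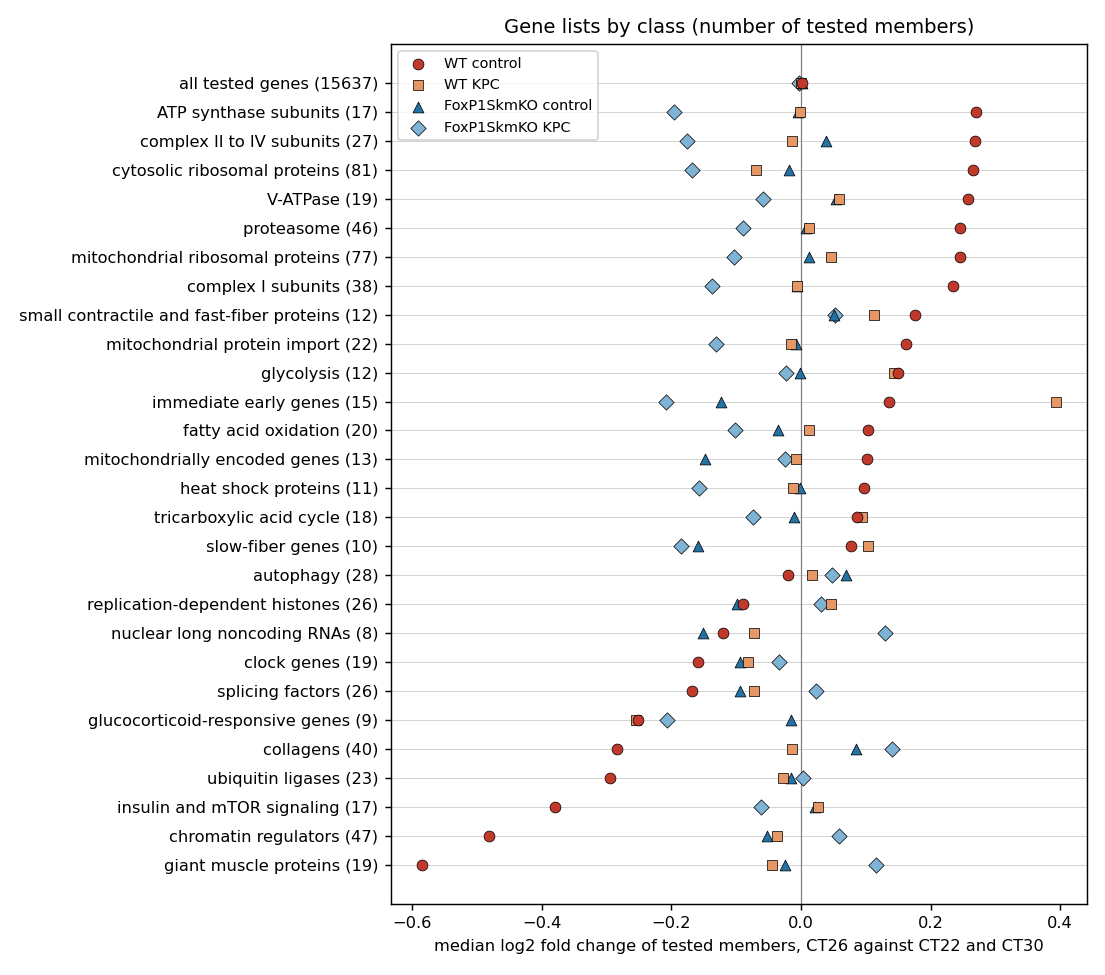
Median log2 fold change of CT26 against CT22 and CT30 over the tested members of each gene list (number in parentheses) in the 4 classes, ordered by the WT control median. WT controls range from -0.58 for giant muscle proteins to 0.27 for ATP synthase subunits, and for these 2 lists the other classes lie between -0.20 and 0.12. Immediate early genes are the list farthest from 0 outside WT controls, with a median of 0.39 in WT KPC mice.

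Single genes with the largest differences included short and long messages. Among protein-coding genes with a mean log2 CPM of at least 3 that passed with both CT26 mice beyond all 4 neighbors, the lowest was *Zbed6*, a transcriptional repressor of *Igf2*, at 0.19 and 0.11 FPKM against 0.49, 1.19, 1.70, and 0.96 FPKM (-2.80, standard error 0.61). It overlaps *Zc3h11a* on the same strand (*Zbed6* spans 133547678 to 133589056 on the minus strand of chromosome 1 in mm39, and *Zc3h11a* 133547600 to 133589118), so the value is uncertain. *Hipk2*, a nuclear kinase, had 2.22 and 3.89 FPKM against 9.92, 11.9, 14.2, and 12.8 FPKM (-2.00, standard error 0.19). *Nt5c1a*, a cytosolic nucleotidase of muscle, had 5.14 and 8.52 FPKM against 20.3, 25.4, 20.5, and 18.2 FPKM (-1.62), although its length of 1220 bases puts it in the shortest decile. *Sned1* (-1.71), *Acvr2b*, a receptor for myostatin and activins (-1.67), and *Sgcd*, a sarcoglycan of the dystrophin complex (-1.64), completed the lowest with *Per1* and *Per2*. In the longest decile, *Stard9*, a kinesin (-1.23), and *Gse1* (-1.13) followed *Zbed6*.

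Among genes that met the same conditions, the highest were *Hbb-bs*, *Gstp2*, *Cldn5*, *Hba-a1*, *Ndufa4l2*, *Amhr2*, *Ppp1r27*, and *Tcf15*, with log2 fold changes from 0.88 to 0.77. *Cldn5*, a tight junction protein of endothelium, had 23.3 and 25.1 FPKM against 15.3, 16.4, 13.9, and 9.57 FPKM. *Ndufa4l2*, a mitochondrial protein of hypoxic cells, had 14 and 10.7 FPKM against 8.73, 6.13, 6.88, and 6.22 FPKM. *Hbb-bs*, β-globin, had 153 and 112 FPKM against 50.7 to 92.1 FPKM, and the 5 erythroid markers summed to 260 and 196 CPM at CT26 against 93.7, 168, 118, and 141 CPM, so the erythroid list moved with CT26 as a whole and its part in other results was not tested. In FoxP1SkmKO controls the erythroid markers summed to 163 and 195 CPM at CT26 against 156, 153, 106, and 113 CPM. In WT KPC and FoxP1SkmKO KPC mice the CT26 sums overlapped those of the neighbors. All members of the list had counts, and 2 of 5 passed as higher in WT controls. Over all tested genes 6.41% passed as higher and 8.65% as lower, so marker counts in lists this short say little. Among the other markers, 0 of 6 endothelial, 8 macrophage, 4 fibroblast, 7 adipocyte, 5 Schwann cell, and 2 neutrophil markers tested passed, and *Myh11* of 4 smooth muscle markers and *Myh4* of 6 muscle fiber markers, both long messages, passed as lower. Pancreatic acinar markers summed to 0 CPM in both CT26 mice and to at most 0.368 CPM in the neighbors, and liver markers to 0 and 4.28 CPM against 0.0506 to 0.716 CPM.

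**Figure D4:**
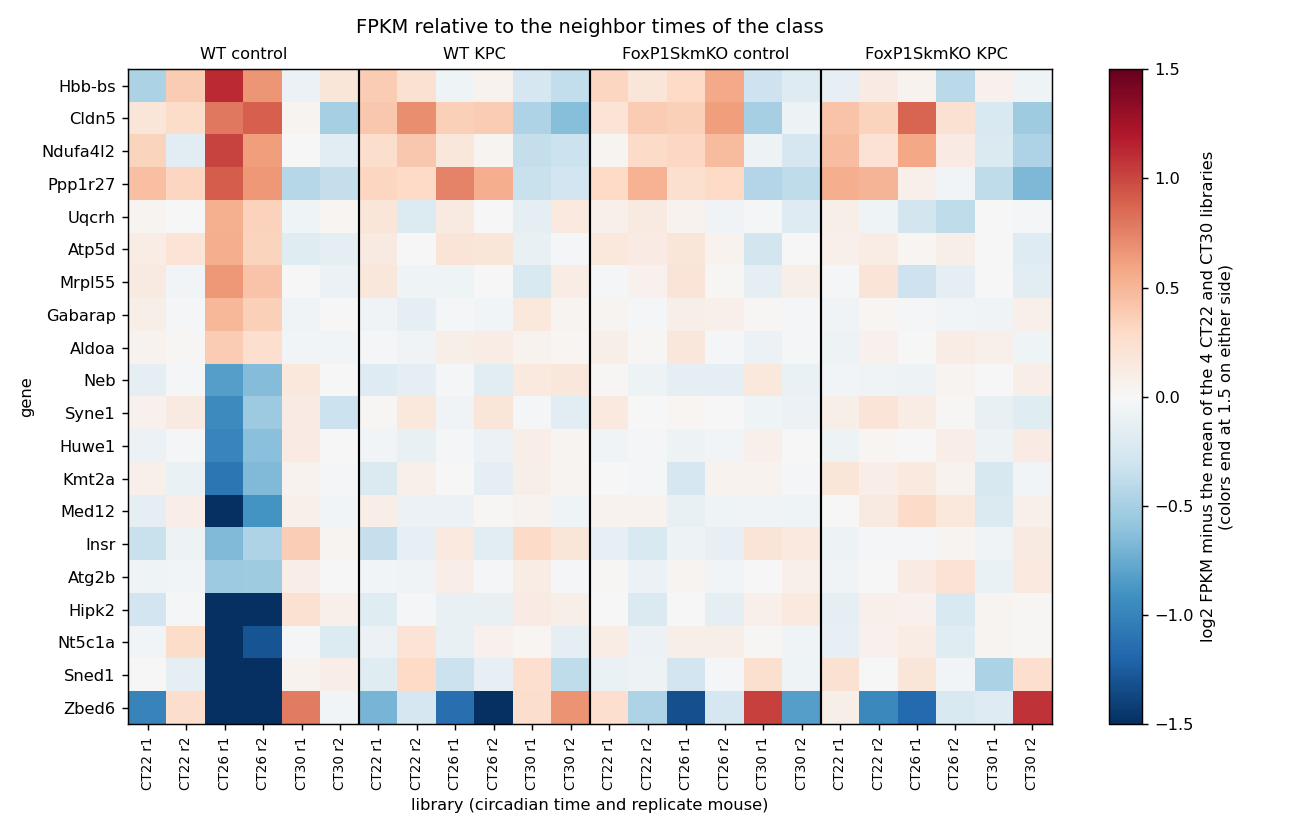
Log2 FPKM of 20 named genes in the 24 libraries at CT22, CT26, and CT30, each minus the mean of the 4 neighbor libraries of its class (r1 and r2 are replicate mice). Colors set the CT26 columns of WT controls apart, *Neb* at 134 and 151 FPKM against 216 to 266 FPKM for example, and the CT26 columns of the other classes are pale for most genes. The genes were picked for their change in WT controls, so this difference between classes follows in part from the choice.

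Among the clock genes, *Per1* and *Per2*, repressors of the loop, had the lowest log2 fold changes. *Per1* (chromosome 11, 68986043 to 69000786, plus strand) had 1.56 and 2.01 FPKM in WT controls at CT26 against 5.81 and 2.39 FPKM at CT22 and 8.28 and 8.88 FPKM at CT30 (-1.75, standard error 0.33). In the other classes it had 3.71 to 12.0 FPKM at CT26. *Per2* had 0.31 and 0.63 FPKM against 0.86, 0.77, 2.61, and 2.85 FPKM (-1.69, standard error 0.24), and 0.97 to 1.68 FPKM at CT26 in the other classes. *Per3* (-0.82) and *Ciart* (-1.35), a further repressor of the loop, also passed as lower, as did *Hlf*, *Rora*, *Nr1d2*, and *Cry2* (-0.58 to -0.37), 8 of the 19 clock genes tested. Over all tested genes that share was 8.65%. *Nr1d1* passed as higher: it had 56.1 and 65.1 FPKM at CT26, above the 25.1 and 25.9 FPKM at CT22 and overlapping the 70.8 and 62.0 FPKM at CT30.

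Because a clock gene climbs or descends through CT26, its value depends on which neighbor is taken. Against CT22 alone, *Ciart* was 0.56, *Nr1d2* 0.11, and *Dbp* 1.42 in WT controls, whereas *Per1* and *Per2* stayed below both neighbors in both mice. For other clock genes the levels at CT26 can be set beside those of the other classes. *Nr1d1* had 53.2 to 70.0 FPKM at CT26 in the 3 other classes, *Arntl* 4.09 and 3.26 FPKM in WT controls and 2.14 to 3.70 FPKM in the others, and *Dbp*, an output of the loop, 10.8 and 13.9 FPKM in WT controls and 15.5 to 26.6 FPKM in the others. At CT26, *Dbp*, *Per1*, *Per2*, and *Per3* were lower in both WT control mice than in any of the 6 mice of the other classes. The same held for *Cry2*, *Nr1d2*, *Hlf*, and *Rora*. *Nfil3* (14.1 and 13.2 FPKM) and *Bhlhe41* (15.2 and 14.5 FPKM) were higher in both WT control mice than in any of the others. The share of all tested genes that separate in this way between classes was not computed. Whether the clock genes exceed it is therefore not known.

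**Figure D5:**
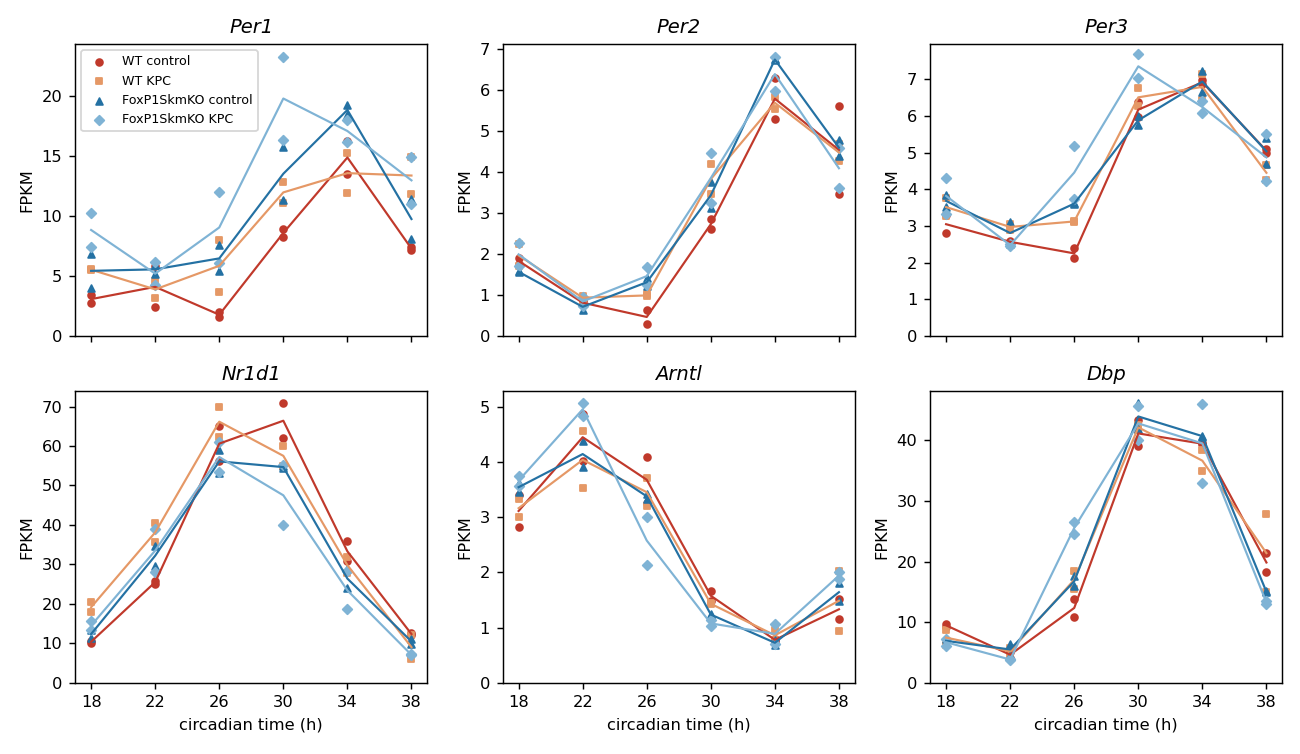
FPKM of 6 clock genes over the 6 circadian times in the 4 classes, with points for mice and lines through the means of 2 mice. At CT26, *Per1*, *Per2*, and *Per3* are lowest in WT controls, for example *Per2* at 0.31 and 0.63 FPKM against 0.97 to 1.68 FPKM in the others, and *Nr1d1* stands between 53.2 and 70.0 FPKM in all 8 mice.

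Elements that clock proteins bind lie upstream of some of these genes, shown here for 3 of the genes that passed as lower. The E-box CACGTG is read by BMAL1 and CLOCK, and the D-box TTATGTAA by DBP, HLF, and TEF. Both strands were searched over the 250 bases upstream of each start in the RefSeq promoters of build GRCm38.p6, a different build from the mm39 of the counts. Promoters were matched for 16 of the 19 clock genes. The E-box was in the promoter of 5 of them, *Bhlhe41*, *Ciart*, *Cry1*, *Per1*, and *Tef*, and in 6.02% of all 32851 promoters. *Bhlhe41*, *Cry1*, and *Tef* did not pass as lower. The D-box was in the promoter of 1, *Per3*, and in 0.819% of all. The sequences run 5′ to 3′ toward the start, and the capitals mark the E-boxes of *Per1* (chr11:69098699-69098948, plus strand) and *Ciart* (chr3:95882229-95882478, minus strand) and the D-boxes of *Per3* (chr4:151044666-151044915, minus strand).
Per1: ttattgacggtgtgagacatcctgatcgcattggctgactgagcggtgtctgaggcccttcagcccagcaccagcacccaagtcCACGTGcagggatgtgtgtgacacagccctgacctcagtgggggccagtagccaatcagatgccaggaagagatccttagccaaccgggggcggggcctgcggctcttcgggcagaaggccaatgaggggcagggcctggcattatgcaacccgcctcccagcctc
Ciart: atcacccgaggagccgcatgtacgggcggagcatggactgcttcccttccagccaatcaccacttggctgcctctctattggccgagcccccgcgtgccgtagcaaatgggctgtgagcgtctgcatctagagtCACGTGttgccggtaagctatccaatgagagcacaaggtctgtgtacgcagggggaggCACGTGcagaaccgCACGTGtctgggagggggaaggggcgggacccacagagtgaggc
Per3: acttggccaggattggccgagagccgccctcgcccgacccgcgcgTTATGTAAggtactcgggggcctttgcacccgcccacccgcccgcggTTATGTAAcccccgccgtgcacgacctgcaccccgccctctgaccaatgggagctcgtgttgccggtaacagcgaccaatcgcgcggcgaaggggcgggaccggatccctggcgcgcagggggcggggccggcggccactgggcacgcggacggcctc
The E-box of *Per1* spans the bases 166 to 161 before the start, the 3 E-boxes of *Ciart* begin 116, 58, and 44 bases before it, and the D-boxes of *Per3* begin 205 and 158 bases before it. A match describes the letters in this window and does not show that a protein binds there.

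*Foxp1* itself (13751 bases) was at 0.511 and 0.430 FPKM in WT controls at CT26 against 0.529, 0.536, 0.971, and 0.728 FPKM at the neighbors, and it passed as lower (-0.51, standard error 0.15). In the other classes its contrast was -0.09 in WT KPC, 0.07 in FoxP1SkmKO control, and -0.07 in FoxP1SkmKO KPC mice, and none of these passed. At CT26 the FoxP1SkmKO controls had 0.587 and 0.578 FPKM of *Foxp1*, above the WT controls, whereas at CT18 they had 0.634 and 0.625 FPKM against 0.681 and 0.725 FPKM, and at CT30 0.573 and 0.641 FPKM against 0.971 and 0.728 FPKM, below the WT controls. At CT22, CT34, and CT38 the values of FoxP1SkmKO and WT controls overlapped. Whether the direction between genotypes differs with time was not tested. The length of *Foxp1* puts it in the longest decile, whose median log2 fold change in WT controls was -0.30. The count covers the whole gene rather than its deleted part.

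When the trend on gene length was removed from each library, 1039 of 15637 genes (6.64%) passed in WT controls, 544 higher and 495 lower, and 812 of them (34.5% of the original 2356) had passed before. The giant muscle proteins then had 2 of 19 genes lower (median -0.14), the chromatin regulators 15 of 47 (median -0.21), the ubiquitin ligases 6 of 23 (median -0.02), and insulin and mTOR signaling 2 of 17 (median -0.10). On the higher side, 11 of 81 cytosolic and 14 of 77 mitochondrial ribosomal proteins passed. So did 8 of 38 genes of the complex I list and 7 of 46 proteasome genes. These lists had medians from 0.11 to 0.15. The median over all tested genes was 0.01. The lowest single genes changed little: *Hipk2* was at -1.81, *Nt5c1a* at -1.80, *Per1* at -1.69, and *Per2* at -1.62, and 7 of the 19 clock genes passed as lower.

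Without replicate 1 of WT control CT26, fewer members of each list below passed than with both mice. Giant muscle proteins, chromatin regulators, and ubiquitin ligases had medians of -0.51, -0.40, and -0.26. With both mice these were -0.58, -0.48, and -0.29. Insulin and mTOR signaling had a median of -0.25, the clock list -0.07, and the splicing factors -0.19. With both mice these were -0.38, -0.16, and -0.17. On the higher side, cytosolic and mitochondrial ribosomal proteins, the complex I list, and proteasome genes had medians of 0.23, 0.18, 0.20, and 0.14. Of the 16 single genes named as highest and lowest, 6 passed: *Cldn5*, *Zbed6*, *Hipk2*, *Sned1*, *Per2*, and *Nt5c1a*. The median log2 fold change of the longest decile was -0.24 in this fit and -0.35 without replicate 2. Over all tested genes the medians were 0.0040 and -0.0025.

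The same comparison in the other classes gave few calls. In WT KPC mice 2 genes (0.0128%) passed, both higher: *Xirp1*, an actin-binding repair protein of muscle (log2 fold change 0.95, adjusted p = 0.0280), and *Atf3*, a stress-induced transcription factor (1.87, adjusted p = 0.0280). In FoxP1SkmKO controls 0 genes passed (0%) by edgeR, with 1037 at an unadjusted p under 0.05, and 0 by DESeq2. In FoxP1SkmKO KPC mice 10 genes (0.064%) passed, 3 higher and 7 lower. *Dbp* (0.99, adjusted p = 0.0017), *Rabep2* (0.72, adjusted p = 8.6e-04), and *Sgsm2* (0.93, adjusted p = 0.0013) rose, and *Arrdc3*, an arrestin-domain protein (-1.16, adjusted p = 6.8e-04), *Selenof*, *Glrx3*, *Mrpl32*, *Rps27l*, *Rps14*, and *A430005L14Rik* fell. The median absolute log2 fold change was 0.14, 0.13, and 0.15 in these classes, against 0.24 in WT controls.

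The gene groups that set WT controls at CT26 apart had other values in these mice. Giant muscle proteins had medians of -0.04 in WT KPC, -0.03 in FoxP1SkmKO control, and 0.12 in FoxP1SkmKO KPC mice, and chromatin regulators -0.04, -0.05, and 0.06. *Neb* had 235 and 212 FPKM at CT26 in WT KPC mice (208 to 267 FPKM at the neighbors), 204 and 205 FPKM in FoxP1SkmKO controls (211 to 253 FPKM), and 232 and 251 FPKM in FoxP1SkmKO KPC mice (235 to 261 FPKM). Cytosolic ribosomal proteins had medians of -0.07, -0.02, and -0.17, and ATP synthase subunits -0.0012, -0.0051, and -0.20. All of these lay below 0, the lowest of each list in FoxP1SkmKO KPC mice. In that class *Rps14* and *Rps27l* of the cytosolic and *Mrpl32* of the mitochondrial ribosomal list passed, all as lower. Of all tested genes 0.064% passed there. The 1003 genes that passed as higher in WT controls had medians of 0.07, 0.07, and -0.02 in the other classes, and the 1353 that passed as lower -0.05, -0.08, and -0.02. Above 0 lay 72.5% of the former in WT KPC, 72.4% in FoxP1SkmKO control, and 45.6% in FoxP1SkmKO KPC mice, against 49.9%, 50.2%, and 49.3% of all tested genes. The difference between the WT control contrast and the average of the other 3 passed for 1145 genes (7.32%), 433 higher and 712 lower in WT controls. It rests on the WT control libraries that were chosen and is a description, and 90 genes passed without replicate 1 of WT control CT26.

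Averaged over the 3 other classes, with 6 mice at CT26 and 12 at the neighboring times, 79 genes (0.505%) passed, 47 higher and 32 lower. Of these, 20 of the 47 (42.6%) and 12 of the 32 (37.5%) also passed in the same direction in WT controls. Of all tested genes, 6.41% passed as higher and 8.65% as lower in WT controls. The shared genes are 1.99% of the WT control genes that were higher and 0.887% of those that were lower. Both shares exceed the 0.505% of all tested genes that passed in the average in either direction. The lowest was *Arrdc3*, at 3.10 to 4.62 FPKM at CT26 in the 6 mice and at 4.82 to 9.39 FPKM in their neighbors (log2 fold change -0.79, standard error 0.09, edgeR adjusted p = 1.5e-05), with -0.62 in WT controls. *Cep85l* (-0.59, adjusted p = 0.0362), *Per2* (-0.50, adjusted p = 0.0405), *Zfp366* (-0.48, adjusted p = 0.0320), and *Timp3*, an inhibitor of matrix metalloproteinases (-0.43, adjusted p = 0.0362), also fell. *Nr1d1* (0.48, adjusted p = 0.0257), *Cldn5* (0.47, adjusted p = 0.0405), *Dbp* (0.43, adjusted p = 0.0362), *Arntl* (0.41, adjusted p = 0.0476), and *Rabep2* (0.40, adjusted p = 0.00239) rose.

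Several of these depend on the neighbor or on a library. Against CT22 alone *Per2* was 0.59 and *Arntl* -0.49, and against CT30 alone *Dbp* was -1.15, since these genes climb or descend through CT26. *Arrdc3* kept its sign and passed under all 27 alternatives run for it. The count of 79 fell to 5 without FoxP1SkmKO control CT26 replicate 1 and rose to 117 without FoxP1SkmKO control CT30 replicate 2, and it was 6 with the GC trend removed and 7 when the 18 libraries were fitted alone. For the 15637 tested genes the median log2 fold change of the averaged contrast was -0.0030, and Spearman's rho across genes was -0.06 with gene length and 0.38 with GC content, against -0.38 and 0.22 in WT controls.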

How the data were processed

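RNA-seq libraries of tibialis anterior muscle came from 4 classes of mice at 6 circadian times with 2 mice each. The deposited counts per gene are whole reads that the authors obtained by alignment and gene counting, for which the submitters' processing notes name HISAT2 2.0.5 and DESeq2 1.20.0 whereas the study's methods name STAR and HTSeq; whether counting used strand is not settled. FPKM, as deposited, is what the authors derived from these counts with the length of each gene, and it serves here for levels. For genes absent from a table of counts, counts were recovered from FPKM, and all 28541 positive values were whole within 0.01. Library totals ran from 14480867 to 20787784 counts (median 16602092). Gene positions are in mm39. The methods give ages of 39 to 55 weeks, and another passage of the study describes younger mice.

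Counts of all 48 libraries were fitted with edgeR 4.0.16 (quasi-likelihood test, TMM scaling, filterByExpr, 24 groups, 15637 of 33218 genes with any count) in R 4.3.3 with limma 3.58.1, and p-values were adjusted by Benjamini-Hochberg over all tested genes. The contrast was CT26 minus the mean of CT22 and CT30 within a class. Alternatives were DESeq2 1.42.0, other filters, scalings and neighbors, trends in length or GC content removed, a replicate block, and each library left out. The difference between the WT control contrast and the average of the other classes was added after seeing the data. Scripts were tested on simulated counts. GC content was matched for 99.6% and coding and untranslated lengths for 84.8% of tested genes, from GENCODE M39.

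The members and gene lists were chosen with earlier results of these data known. Named genes were the 8 highest and 8 lowest protein-coding genes with a mean log2 CPM of at least 3 that passed with both CT26 libraries beyond all 4 neighbors, up to 3 members of each list with the largest absolute change, the 5 highest and 5 lowest of the averaged contrast, *Foxp1*, the clock list, and 3 genes in the shortest and longest deciles by length. Further list members and the genes that passed in single classes were named after their values were seen. Replicate numbers did not pair the mice.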

Additional observations from a re-analysis of the deposited data

Results flagged for a closer look

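The CT26 contrast differed between WT controls and the average of WT KPC, FoxP1SkmKO control, and FoxP1SkmKO KPC mice for 1145 of 15637 genes, 433 higher and 712 lower in WT controls. The difference was taken in the edgeR fit of all 48 libraries, and it includes the WT control CT26 libraries that guided the choice. The class and time were chosen for this behavior, so the count describes these libraries and is not a test of the difference.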

How the results depend on the processing

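For the WT control contrast, 1057 genes passed with CT22 alone as neighbor (31.6% of them higher) and 1039 with the length trend removed (52.4% higher), against 42.6% higher as reported. Leaving out 1 library gave 314 to 2186 genes, with 23.9% higher without CT26 replicate 1. In WT KPC mice, 1 gene passed with CT22 alone, 27 with CT30 alone, 13 by DESeq2, and 161 without a filter on low counts, and 0 to 14 with a library left out. In FoxP1SkmKO controls the counts were 3, 24, 1 with the libraries compared alone, and 96 without a filter, and 0 to 0 with a library left out. In FoxP1SkmKO KPC mice they were 61 with CT22 alone, 78 with CT30 alone, 84 by DESeq2, 1 with the libraries alone, and 171 without a filter, and 2 to 15 with a library left out. For the average of the 3 classes they were 954 with CT30 alone, 225 by DESeq2, 6 with the GC trend removed, 7 with the libraries alone, and 277 without a filter, and 5 to 117 with a library left out. The difference between classes gave 633 with CT22 alone, 722 with CT30 alone, 441 with the length trend removed, and 90 to 1388 with a library left out. By DESeq2, the other times in WT controls gave 33 genes at CT22, 282 at CT30, and 4 at CT34. The causes were not tested.

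The difference in length slope in WT controls was -0.144 on genomic span and -0.0822 over all genes with any count, and -0.335 to -0.257 with a library left out. In FoxP1SkmKO KPC mice it turned to -0.00394 on span, -0.0130 over all genes, and -0.000776 and -0.000446 without CT30 replicates 1 and 2, in a range up to 0.0370. The ranges were -0.0575 to -0.0114 in WT KPC mice, -0.104 to 0.0271 in FoxP1SkmKO controls, and -0.0395 to 0.00400 for the average, both of the latter turning positive without FoxP1SkmKO control CT26 replicate 1. Clock genes turned with the neighbor. In WT controls, *Nr1d1* was -0.13 against CT30 alone, and *Dbp* 1.42, *Nr1d2* 0.11, *Nfil3* -0.80, and *Ciart* 0.56 against CT22 alone. In the average, against CT22 alone, *Per2* was 0.59, *Per3* 0.42, *Arntl* -0.49, *Tef* 0.24, *Nr1d2* 0.35, *Cry2* 0.33, and *Ciart* 1.41, and against CT30 alone *Dbp* was -1.15 and *Nfil3* 0.49. With the replicate block, 2298 genes passed in WT controls, 2 in WT KPC, 0 in FoxP1SkmKO control, and 11 in FoxP1SkmKO KPC mice, 80 in the average, and 1112 in the difference; the replicate numbers did not pair the mice (correlations of -0.12 to 0.188). With 2 mice a group, small changes at low counts are not detectable.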
